A study of Mus musculus with 12 samples.

Results

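The matrix proteases and their inhibitors were followed in the hypertrophic zone of the mouse tibial growth plate, in 2 mouse models in which misfolded protein collects in hypertrophic chondrocytes. Members were all genes on the array named as a matrix metalloproteinase (Mmp), an ADAMTS protease, an ADAMTS-like protein, a tissue inhibitor of metalloproteinases (Timp1 to Timp4) or Reck. This name rule took 81 of the 41174 probes and gave 48 of 27962 gene names, of which 21 were Mmp genes, 17 Adamts genes, 5 Adamtsl genes and 4 Timp genes, beside Reck. There were 26 genes with 1 probe and 22 with several, and at most 4 probes stood for 1 gene.

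MMPs are zinc proteases that cut collagens and other matrix proteins outside the cell. In the growth plate, the collagenase Mmp13 and the gelatinase Mmp9 are known for opening the calcified matrix of the hypertrophic zone before vessels and bone replace it, and Mmp14, anchored in the cell membrane, activates other MMPs. ADAMTS proteases carry thrombospondin repeats that hold them in the matrix, and different members cut aggrecan and versican, trim procollagens, or cut cartilage oligomeric matrix protein. TIMPs bind the active site of these enzymes and block it, and Reck is a membrane-anchored inhibitor of several MMPs.

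Schmid mice were homozygous for Col10a1 p.Asn617Lys, a change in collagen X that models metaphyseal chondrodysplasia of Schmid type. Cog mice carried ColXTgcog, a transgene driven by collagen X regulatory sequence that makes a misfolding thyroglobulin in hypertrophic chondrocytes, and since mice with the transgene on 1 or on both chromosomes were not told apart in the study, the Cog group may hold both. Each mutant was set against wildtype mice of its own background, and all mice were 14 days old. Each of the 4 groups held 3 mice, with 1 tibia, 1 amplified RNA and 1 single-colour array per mouse, so p values describe the spread between mice within these groups.

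The sequences behind the calls described first are shown here. Mmp9, Mmp23 and Adamts2 were each read by 60-base probes, given as deposited with positions on the mm7 build from the array's own annotation, and 2 probes are shown for Adamts2 because both were called. The probe of Mmp9 lay at chr2:164695457-164695516 on the plus strand, those of Adamts2 at chr11:50760727-50760786 and chr11:50733443-50733502 on the plus strand, and that of Mmp23 at chr4:154640810-154640869 on the minus strand. The exons of these genes were not looked up on that build.
Mmp9 (A_51_P401797): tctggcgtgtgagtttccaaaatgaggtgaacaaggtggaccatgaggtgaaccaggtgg
Adamts2 (A_51_P227222): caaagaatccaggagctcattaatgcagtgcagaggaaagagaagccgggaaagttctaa
Adamts2 (A_52_P184042): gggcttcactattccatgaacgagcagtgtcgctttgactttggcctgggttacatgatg
Mmp23 (A_51_P502132): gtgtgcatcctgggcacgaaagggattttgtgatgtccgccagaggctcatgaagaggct

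Of the 21 Mmp genes, 8 lie side by side on chromosome 9, where their probes spanned 415 kb from Mmp13 to Mmp7. Of these neighbours, Mmp10 was called lower in Schmid while Mmp3 and Mmp13 were not, and the 150 bases before the starts of these genes are shown. Mmp8, also called lower in Schmid but near background, is not shown. Sequences are from RefSeq (GRCm38.p6, all on the plus strand), at chr9:7502192-7502341 for Mmp10, chr9:7445672-7445821 for Mmp3 and chr9:7272364-7272513 for Mmp13. Capitals mark the AP-1 motif TGAGTCA, the RUNX motif AACCACA and the TATA box TATAAA, each searched on both strands.
Mmp10: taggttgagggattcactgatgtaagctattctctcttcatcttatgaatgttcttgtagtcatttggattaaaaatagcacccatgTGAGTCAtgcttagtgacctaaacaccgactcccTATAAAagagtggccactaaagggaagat
Mmp3: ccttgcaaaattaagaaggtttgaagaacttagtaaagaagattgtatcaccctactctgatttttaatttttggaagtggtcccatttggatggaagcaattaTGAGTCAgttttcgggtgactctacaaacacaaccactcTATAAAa
Mmp13: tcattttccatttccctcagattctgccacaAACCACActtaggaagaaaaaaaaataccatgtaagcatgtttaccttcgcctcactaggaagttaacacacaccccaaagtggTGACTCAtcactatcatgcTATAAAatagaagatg

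Promoters, taken as 250 bases before to 50 after a start, were found for 33 of the 48 genes. The AP-1 motif stood in those of 6 genes, Mmp1a, Mmp3, Mmp7, Mmp10, Mmp12 and Mmp13, which all belong to the chromosome 9 cluster, and in 5.20% of all 32851 promoters listed. It began 63 bases before the start of Mmp10, 46 before that of Mmp3 and, on the opposite strand, 35 before that of Mmp13. The RUNX motif stood in Mmp13 and Mmp7, and in 5.27% of all promoters. TATAAA was present in 11 member genes and in 13.6% of all promoters. The ER stress element, searched by its full consensus, was in 0 member promoters and 0.119% of all. A match of letters says nothing about binding, and a missing one says only that the letters are not in this window.

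Values are log2 intensities after background correction and quantile normalization, and group means were compared with limma. A probe was called at an adjusted p of 0.05 or less over all 41174 probes and a difference of at least 2-fold, and fold changes below wildtype carry a minus sign. Between 29 and 53 of the 81 member probes were well above background on any 1 array, 23 on all 12 arrays and 20 on none. The arrays sat on 4 slides and each mutant was on other slides than its wildtype mice, which leaves effects of slide and genotype that cannot be told apart. In zones cut out by hand, neither can fewer cells of a type be told apart from less RNA per cell. All 7 markers of hypertrophic chondrocytes were well above background on all 12 arrays.

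In the Schmid hypertrophic zone, 7 member probes of 6 genes fell and 1 probe of 1 gene rose. The genes that fell were Mmp9, Mmp10, Mmp23, Mmp8, Adamts2 and Adamts9, and the one that rose was Adamts18. These are 8.64% of member probes lower, where 4.69% of all probes were lower, and 1.23% higher, where 5.78% of all probes were higher. Over the brightest probe of each gene, 5 of 48 were called, all lower. The median log2 fold change over all 81 probes was -0.21, against -0.06 over all probes tested, and 56 of the 81 were negative (69.1%, against 55.2% of all probes). Scaling to a common 75th percentile in place of quantiles moved both medians, to -0.60 for members and -0.35 for all probes, or to -0.65 and -0.40 with the processed signal. The 3 Schmid mice lay below all 3 wildtype mice at 29 member probes (35.8%, against 26.1% of all probes) and above them at 6 (7.41%, against 19.3%).

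**Figure D1:**
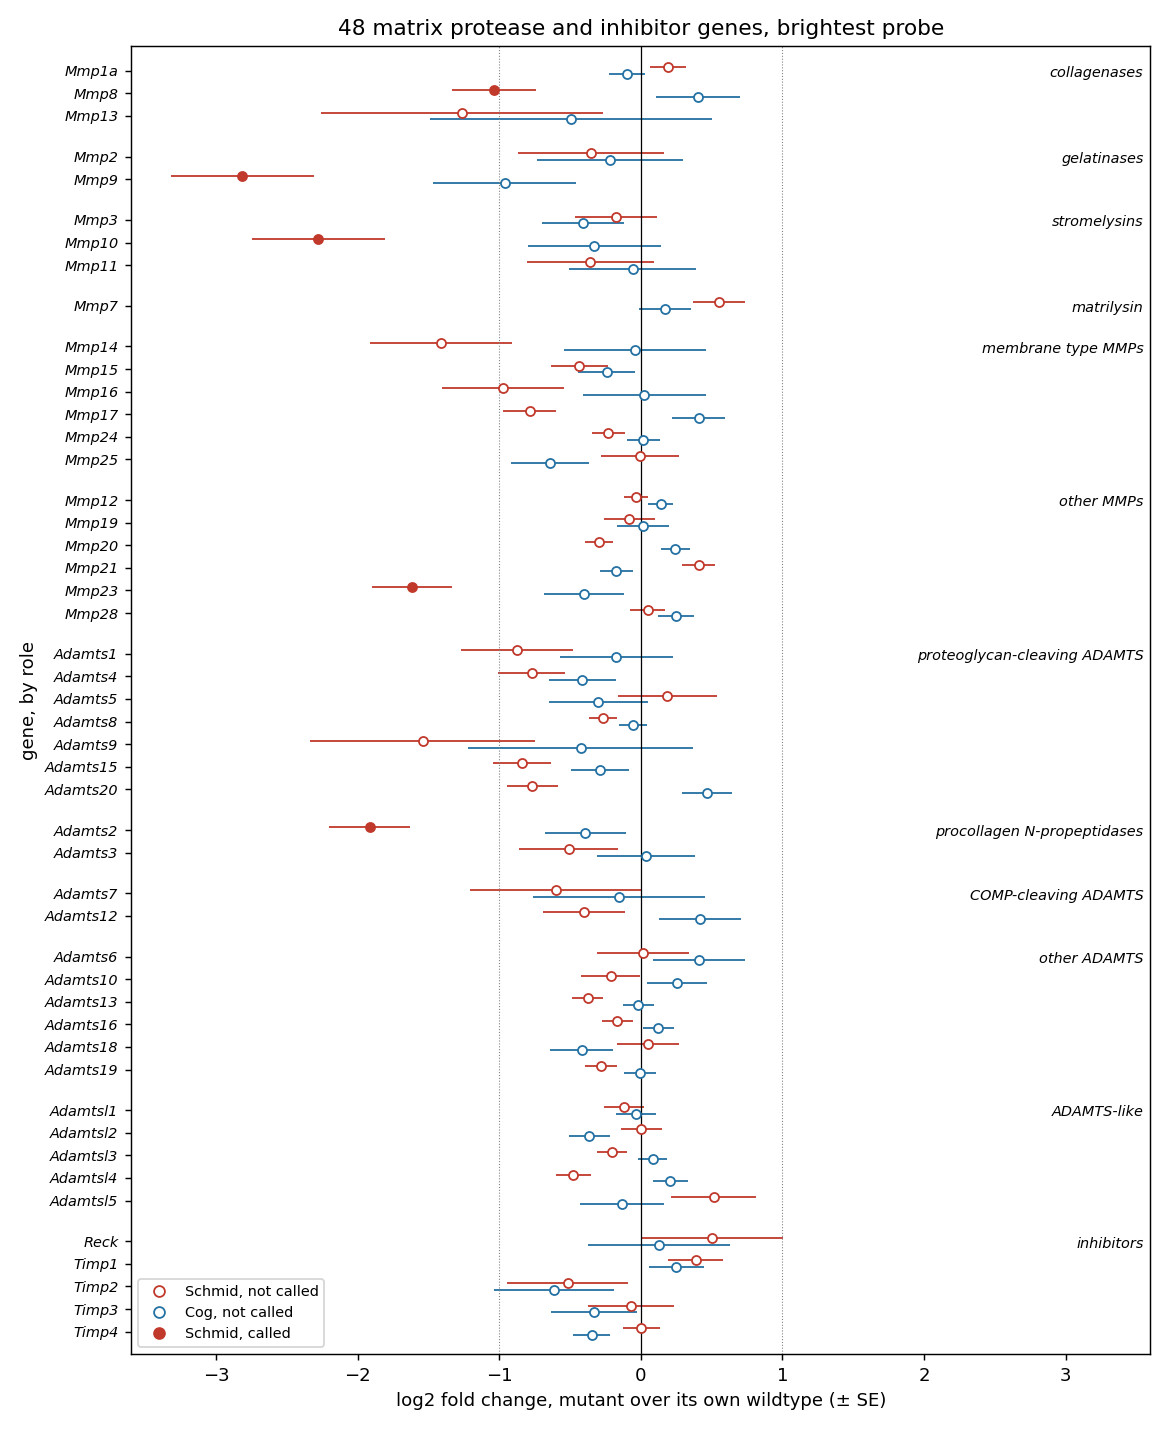
Log2 fold change of each mutant over its own wildtype, with the standard error from limma, at the brightest probe of each of the 48 genes, ordered by role. Filled points passed the adjusted p and the 2-fold limit (dotted lines), which 5 genes did in Schmid and 0 in Cog, and 6 of the genes drawn were not above background on any array.

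Among the gelatinases, Mmp9 had the lowest Schmid value relative to wildtype of all members. At its brighter probe the Schmid mice read 12.52, 11.70 and 12.75 on the log2 scale and their wildtype mice 15.91, 14.96 and 14.55. The groups were well apart. Mmp9 fell by 7.03-fold (log2 -2.81 ± 0.50 SE, adjusted p = 0.00363). A dimmer Mmp9 probe, printed 10 times on each array, read 12.62, 11.51 and 12.50 in Schmid and 16.01, 13.34 and 12.68 in wildtype. There wildtype replicate 1 stood far above the other wildtype mice, the groups were nearly in contact, and the difference of -1.80 ± 0.90 did not pass (adjusted p = 0.166). Mmp2, the gelatinase activated by Mmp14, had a log2 fold change of -0.35 ± 0.51 (adjusted p = 0.645).

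The stromelysin Mmp10, which cuts proteoglycans and activates procollagenases, read 11.35, 9.89 and 9.76 in Schmid and 12.52, 13.08 and 12.23 in wildtype. All Schmid mice were below all wildtype mice, with Schmid replicate 1 the highest of the Schmid mice. Mmp10 fell by 4.85-fold (log2 -2.28 ± 0.47, adjusted p = 0.00720). Its neighbour Mmp3, with the same motif before its start, had a value of -0.17 and did not pass (adjusted p = 0.690). Mmp3 read 9.26 to 10.09 in these mice, near background, so a fall like that of Mmp10 could hardly be seen. Mmp11, a stromelysin encoded elsewhere, had -0.36 (adjusted p = 0.586).

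Mmp23, a membrane-bound protease without the hemopexin domain of most MMPs, gave narrow groups in both genotypes. It read 10.16, 10.34 and 10.38 in Schmid and 11.75, 11.74 and 12.25 in wildtype. The groups were well apart, and Mmp23 fell by 3.07-fold (log2 -1.62 ± 0.28, adjusted p = 0.00318). Of the other MMPs outside the main classes, Mmp19 had -0.08 and Mmp28 0.05, and neither passed. The enamel protease Mmp20 and the macrophage elastase Mmp12 were not above background on any array and have no measured difference. Mmp21 was above background on 2 Schmid arrays and 0 wildtype arrays, and is given no fold. The matrilysin Mmp7 had 0.55 (adjusted p = 0.0524).

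Of the collagenases, Mmp13 did not pass in spite of a log2 fold change of -1.26 ± 1.0 (adjusted p = 0.373). Schmid mice read 13.17, 12.41 and 12.98, and wildtype mice 16.36, 12.97 and 13.02. A single wildtype mouse, replicate 1, made the difference, and the other wildtype mice lay inside the Schmid range. Mmp8, the collagenase of neutrophils, read 8.85, 8.81 and 8.77 in Schmid, where no array put it well above background, and 10.26, 10.28 and 8.99 in wildtype. Its call (adjusted p = 0.0297) therefore rests on the 2 of 3 wildtype arrays that measured it, and the size of the difference is uncertain. Here wildtype replicate 3 was close to the Schmid mice, and without any 1 Schmid mouse, or wildtype replicate 1 or 2, the adjusted p ran from 0.0700 to 0.113. Mmp1a was above background on 1 Schmid array and 0 wildtype arrays and did not pass.

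Of the 6 membrane-type MMPs, 0 passed both limits in Schmid. Mmp14, Mmp16, Mmp17 and Mmp24 were above background on all Schmid and wildtype arrays, while Mmp25 was above it on 0 of these arrays and Mmp15 on 1. Mmp14 read 12.95, 13.49 and 13.35 in Schmid and 15.63, 14.11 and 14.28 in wildtype. The groups did not overlap, and its adjusted p was 0.0638. A dimmer Mmp14 probe passed on p alone, at -0.57 (adjusted p = 0.00498), as did Mmp17 at -0.79 (adjusted p = 0.0137), where 24.0% of all probes did. Mmp16 had -0.97 (adjusted p = 0.123) and Mmp24 -0.23 (adjusted p = 0.173). The dimmer Mmp14 probe was printed in row 25 of the array and was well above background on 2 of the 3 Schmid arrays. The brighter Mmp14 probe passed under 5 of the 22 alternative settings and not under the other 17. Its values ran from -1.69 to -0.93, with a limma adjusted p of up to 0.173. One that passed took out a smooth trend over the array's rows and over probe GC content (-1.61, adjusted p = 0.0415).

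**Figure D2:**
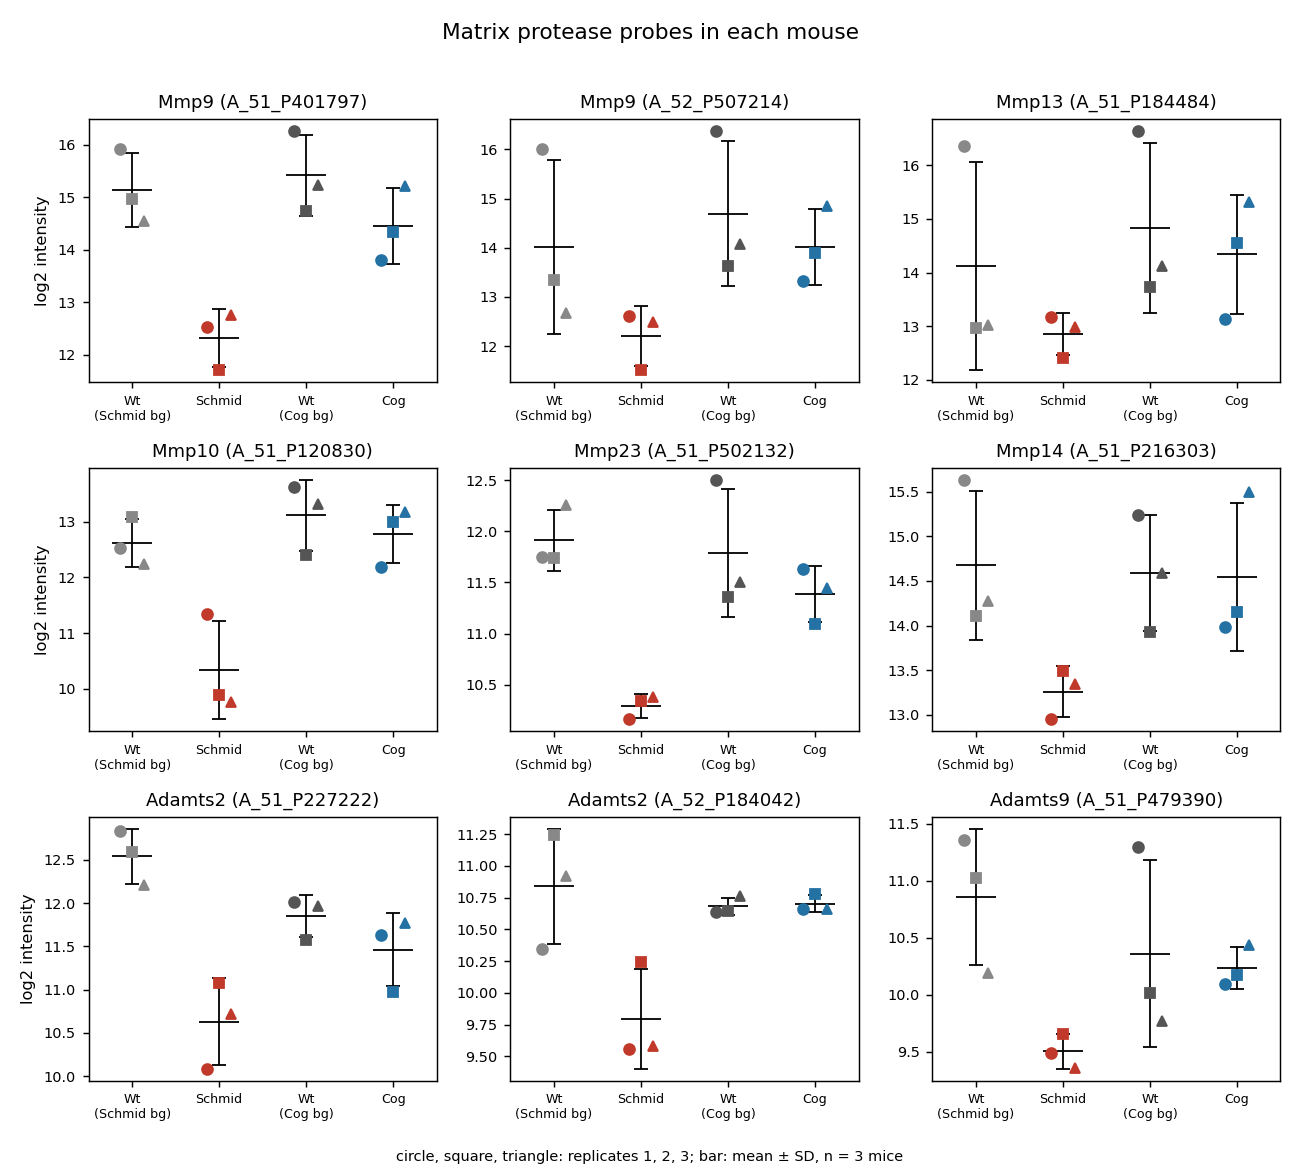
Log2 intensity of 9 protease probes in each of the 12 mice, with the mean and SD of each group (n = 3). All Schmid mice lie below all wildtype mice of their background in the panels other than Mmp13. Replicate 1 of both wildtype groups stands highest at both Mmp9 probes, Mmp13, Mmp14, Adamts2 (A_51_P227222) and Adamts9.

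Adamts2, which removes the N-propeptide of fibrillar procollagens, was lower at 2 of its 4 probes. The brightest read 10.09, 11.08 and 10.72 in Schmid and 12.83, 12.59 and 12.20 in wildtype. The groups lay more than 1 log2 unit apart, and Adamts2 fell by 3.77-fold there (log2 -1.92 ± 0.29, adjusted p = 0.00152). A second probe, over an earlier part of the gene, read 9.56, 10.25 and 9.58 against 10.35, 11.24 and 10.92. Its groups barely separated, and it fell by 2.06-fold (adjusted p = 0.0106). With Schmid replicate 1 or 3, or wildtype replicate 2 or 3, left out, this second probe was under the 2-fold limit, at -0.93, -0.93, -0.84 and just under -1. The other probes, at -0.35 and 0.18, did not pass. Adamts3, another N-propeptidase, had -0.51 ± 0.35 (adjusted p = 0.300).

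Of the 7 ADAMTS genes that cut aggrecan or versican, 0 passed both limits in Schmid at the brightest probe. Adamts9 fell at a dimmer probe, which read 9.49, 9.66 and 9.36 in Schmid and 11.35, 11.02 and 10.19 in wildtype (-2.55-fold, adjusted p = 0.0289). The wildtype mice differed more among themselves than the Schmid mice did, and without any 1 Schmid mouse, or wildtype replicate 1 or 2, the adjusted p ran from 0.0588 to 0.0939. Its brightest probe had a larger but noisier value of -1.54 ± 0.80 (adjusted p = 0.177). Adamts15 (-0.84, adjusted p = 0.0156), Adamts20 (-0.77, adjusted p = 0.0131) and Adamts4 (-0.77, adjusted p = 0.0396) passed on p alone. Adamts4 was not well above background on any Schmid array, so the size of its difference is uncertain. Adamts1, which cuts aggrecan and versican, had -0.87 (adjusted p = 0.130), and 0.26 at a dimmer probe near background (adjusted p = 0.655). Adamts5, the main aggrecanase of mouse cartilage, had 0.19 (adjusted p = 0.724). It read 9.63 to 10.55 in these mice, close to background, and was well above it on 2 of 3 wildtype arrays. Adamts8 was not above background on any array at its brightest probe.

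Of the COMP-cleaving pair, neither passed at its brightest probe, Adamts7 at -0.60 (adjusted p = 0.492) and Adamts12 at -0.40 (adjusted p = 0.325). Adamts7 read 10.08, 10.30 and 10.15 in Schmid and 11.58, 11.78 and 8.98 in wildtype. Without wildtype replicate 3 it was called lower, at -1.50. Adamts18 rose at the dimmer of its 2 probes, which read 11.56, 10.56 and 10.59 in Schmid and 9.68, 10.05 and 8.74 in wildtype (2.66-fold, adjusted p = 0.0185). The brighter probe had 0.05 (adjusted p = 0.886), so the probes of this gene disagreed, and the dimmer one did not pass without Schmid replicate 1 (1.08, adjusted p = 0.0671) or wildtype replicate 3 (1.04, adjusted p = 0.0548). Among other ADAMTS genes, Adamts10 had -0.21 (adjusted p = 0.480), and Adamts6, Adamts13, Adamts16 and Adamts19 were above background on at most 1 of the Schmid and wildtype arrays. The 5 ADAMTS-like genes, which lack the protease domain, had values from -0.48 for Adamtsl4 to 0.51 for Adamtsl5, and 0 were called. Among them Adamtsl3 was not above background on any array.

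The place of a spot on the array moved with these calls. All 7 probes that fell were printed in rows 9 to 146 of the 532 rows. In rows 1 to 159, 7 of 27 member probes were lower (25.9%), where 10.3% of all probes were, and in the other rows 0 of 54, where 2.27% of all probes were. The median log2 fold change of all probes was -0.25 in rows 1 to 159 and 0.01 in the others. With a smooth trend over the rows removed, 4 probes were called lower, those of Mmp9 (-2.49, adjusted p = 0.00982), Mmp10 (-2.0, adjusted p = 0.0168), Mmp23 (-1.42, adjusted p = 0.00731) and the brightest of Adamts2 (-1.78, adjusted p = 0.00317). The calls of Mmp8 (-0.80, adjusted p = 0.0891) and Adamts9 (-1.04, adjusted p = 0.0899) were lost, and the second Adamts2 probe (-0.80, adjusted p = 0.0284) passed on p but not on the 2-fold limit. The 10 copies of the dimmer Mmp9 probe lay in rows 70 to 528, and their Schmid values ran from -2.14 to -1.72, with -1.90 in both copies within the first 159 rows and -2.12 in row 528.

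**Figure D3:**
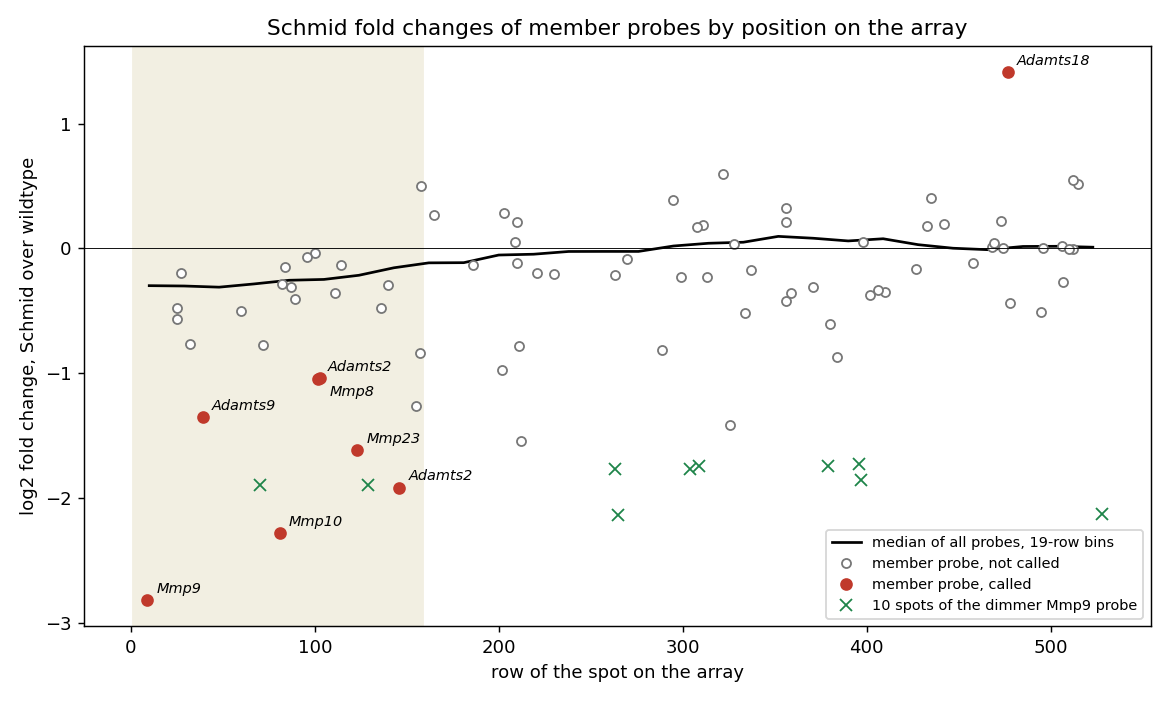
Log2 fold change of Schmid over wildtype for each member probe against the row of its spot, with the median of all probes in bins of 19 rows (line) and rows 1 to 159 shaded. All 7 probes called lower lie in the shaded rows, where the line is below 0, and the 10 copies of the dimmer Mmp9 probe (crosses) stay between -2.14 and -1.72 over the whole array.

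In Cog, limma called 0 of 81 member probes higher and 0 lower, where 1.56% of all probes were higher and 0.748% lower. The lowest adjusted p of any member probe was 0.0644. Cog mice lay below all their wildtype mice at 10 member probes (12.3%, against 13.0% of all) and above them at 7 (8.64%, against 16.4%). These also split by place on the array. Rows 1 to 159, with 27 of the 81 member probes, held all 7 above and 1 of the 10 below. The same split of all probes is not given for Cog, so this cannot be read as a trait of the members. The median was -0.09 over the 81 probes and 0.00 over all probes, and values at the brightest probes ran from -0.96 for Mmp9 to 0.47 for Adamts20. Mmp9 read 13.80, 14.34 and 15.22 in Cog and 16.26, 14.74 and 15.24 in wildtype. These groups overlapped (-0.96 ± 0.50, adjusted p = 0.306). Mmp10 read 12.19, 12.99 and 13.17 against 13.63, 12.40 and 13.31, Mmp13 read 13.13, 14.56 and 15.32 against 16.64, 13.74 and 14.12, and both overlapped as well. With 3 mice a group, a miss does not show that these genes were unaltered in Cog.

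A direct test of the Schmid effect against the Cog effect called 5 member probes (6.17%, against 10.3% of all probes), 4 more negative in Schmid (5.88% of all probes were) and 1 more positive (4.38% were). At Mmp17, a membrane-type MMP held by a lipid anchor, Schmid mice read 11.01, 11.25 and 11.20 and their wildtype 11.62, 12.11 and 12.08. Cog mice read 11.64, 11.45 and 11.82 and their wildtype 11.25, 10.92 and 11.51. Schmid lay below its wildtype without overlap, while Cog overlapped with its wildtype, and the effects differed by -1.19 ± 0.26 (adjusted p = 0.0134).

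Adamts20 read 9.90, 9.88 and 9.87 in Schmid against 10.18, 10.90 and 10.87, and 11.11, 10.94 and 10.81 in Cog against 10.56, 10.36 and 10.53. All Schmid mice were below and all Cog mice above their wildtype, and the effects differed by -1.23 ± 0.25 (adjusted p = 0.0101). The Adamts20 probe was printed in row 32. Adamts2 also differed, by -1.52 ± 0.41 (adjusted p = 0.0303), from values of -1.92 in Schmid and -0.39 in Cog, but not when any of these mice was left out, Schmid replicate 1 or 3, Cog replicate 1 or 3, or replicate 2 of either wildtype (adjusted p from 0.0553 to 0.0750). With row and GC trends removed, limma called 0 of these differences. For Mmp9 (-1.85, adjusted p = 0.103), Mmp10 (-1.95, adjusted p = 0.0705) and Mmp23 (-1.22, adjusted p = 0.0628), which fell in Schmid and were not called in Cog, the difference itself did not pass. The remaining calls came from probes near background, Mmp8 (-1.44, adjusted p = 0.0411) and the dimmest probe of Adamts12 (1.47, adjusted p = 0.0337), which stayed near background on all arrays. Each lost its call without any of several single mice (adjusted p up to 0.0924 and 0.0744) and with replicate number as a block (adjusted p = 0.0516 and 0.0541). The brighter Adamts12 probes had differences of -0.82 and -0.27.

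Of the 5 inhibitors, limma called 0 in Schmid and 0 in Cog, and before adjustment 0 in Schmid and 1 in Cog had a p of 0.05 or less. All 5 were well above background on all 12 arrays. Timp1 read 17.92, 17.85 and 18.01 in Schmid and 17.49, 17.57 and 17.56 in wildtype. The groups did not overlap, and the difference was 0.39 ± 0.20 (adjusted p = 0.168), while its other probes had 0.21 and 0.04. Timp2, which also helps Mmp14 activate Mmp2, had -0.52 in Schmid and -0.61 in Cog, and Timp4 had 0.00 and -0.35. Reck had 0.50 ± 0.50 in Schmid and 0.13 in Cog.

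Timp3, the inhibitor that binds to the matrix and blocks aggrecanases as well as MMPs, did not pass in either mutant, at -0.07 in Schmid (adjusted p = 0.888) and -0.33 for Cog (adjusted p = 0.578), but differed between the backgrounds. It read 15.69, 14.93 and 14.89 in wildtype mice of the Schmid background and 17.33, 16.77 and 17.04 in those of the Cog background. Schmid mice read 15.03, 15.18 and 15.10 and Cog mice 16.08, 16.75 and 17.32, so all 6 mice of the Cog background lay above all 6 of the Schmid background. Between the wildtype groups Timp3 differed 3.67-fold (log2 1.87 ± 0.30, adjusted p = 0.0233), the 1 member probe called in that comparison (1.23%, against 0.469% of all probes). With replicate number as a block the adjusted p was 0.0516, and it ran from 0.0641 to 0.0811 without wildtype replicate 2 or 3 of the Schmid background or any 1 wildtype mouse of the Cog background. The wildtype groups lay on different slides, and wildtype replicate 3 of the Schmid background, at 14.89, shared a slide with the Cog mice, at 16.08 to 17.32.

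**Figure D4:**
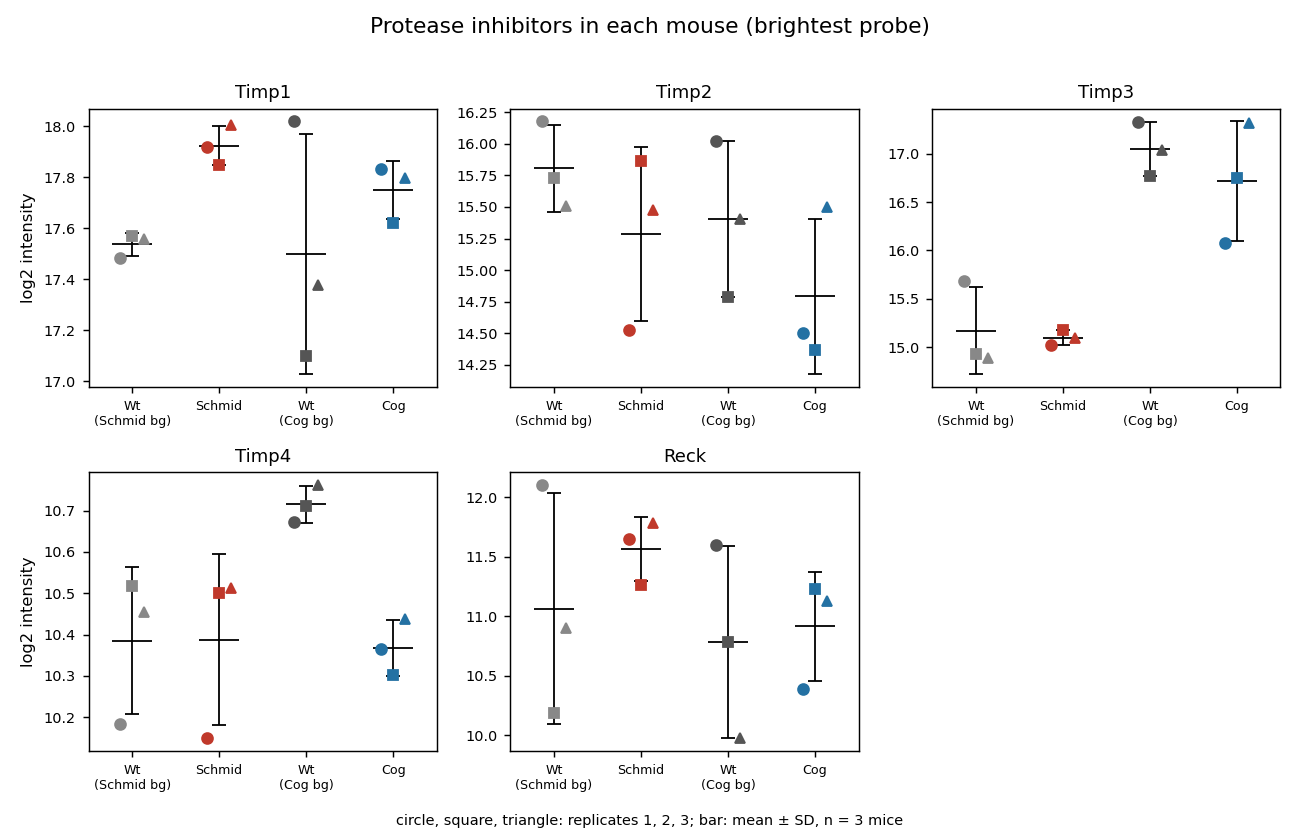
Log2 intensity of the 4 Timp genes and Reck in each mouse, with group means and SD (n = 3). Timp3 lies between 14.89 and 15.69 in the 6 mice of the Schmid background and between 16.08 and 17.33 in the 6 mice of the Cog background.

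Replicate 1 was the highest mouse of both wildtype groups at the brightest probe of 16 of the 48 genes (33.3%, against 15.1% of all probes), among them Mmp2, Mmp9, Mmp13, Mmp14, Adamts1, Adamts9, Timp2 and Timp3. The share was larger among bright probes. Of the 19 genes well above background on all 12 arrays it was so at 10 (52.6%, against 22.9% of all probes that bright). Mean levels of the osteoblast, osteoclast, macrophage, chondrocyte, hypertrophic chondrocyte and red cell markers were highest in wildtype replicate 1 of both backgrounds. Endothelial and neutrophil markers were highest in wildtype replicate 1 of the Schmid background but not of the Cog background. There the endothelial means of replicates 1, 2 and 3 were 11.41, 11.35 and 11.51, and the neutrophil means 9.88, 10.16 and 10.14. The mean log2 level of the 6 osteoblast markers was 16.30 in wildtype replicate 1 of the Schmid background and 15.24 and 15.07 in replicates 2 and 3, and for the 7 osteoclast markers it was 11.61, 11.06 and 11.21. For the 7 hypertrophic markers it was 16.97, 16.15 and 16.20. In the Cog background the osteoblast means were 16.02, 15.60 and 15.62, the osteoclast means 11.83, 11.24 and 11.09, and the hypertrophic means 17.15, 16.53 and 16.57. Chondrocyte markers had 17.62, 16.74 and 16.85 in the Schmid background and 17.51, 17.08 and 16.90 in the Cog background, and macrophage markers 11.90, 11.18 and 11.12, and 11.65, 11.42 and 11.18. The part of these markers in the protease values was not tested.

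Since Mmp9 is also made by osteoclasts and Mmp8 by neutrophils, markers of these and other cells are given beside the Schmid falls. Of all probes, 4.69% were lower and 5.78% higher in Schmid, and 0.748% lower and 1.56% higher in Cog. Of the 7 osteoclast markers found, 0 were called in limma in either mutant, with 2 at an unadjusted p of 0.05 or less in Schmid, a median of -0.36 and a summed linear level of 25774 to 44818 in Schmid and 40075 to 56220 in wildtype. Atp6v0d2, a pump subunit of osteoclasts, was near background on all arrays. Of 8 neutrophil markers, Lcn2 rose in Schmid and 0 fell, though 7 had negative values and the median was -1.54. Their mean log2 level was 13.83, 12.35 and 9.62 in wildtype replicates 1, 2 and 3, of which replicate 3 was also the lowest at Mmp8, and the summed level was 22906 to 73633 in Schmid mice and 9056 to 432786 in wildtype mice. The means were 11.90, 10.89 and 9.97 in Schmid mice and 11.31, 12.19 and 10.39 in Cog mice. Mmp8 was not well above background on any Schmid or Cog array. Of 7 endothelial markers Cdh5, Kdr, Emcn and Esam1 fell, with a summed level of 6540 to 9403 against 21750 to 35648, and of 5 red cell markers Hbb-b1, Hba-a1 and Alas2 fell, with 24671 to 67885 against 251773 to 981827. Of 7 hypertrophic markers Ihh, Pthr1 and Akp2 fell, of 6 osteoblast markers Col1a1, of 4 macrophage markers Csf1r, and of 6 chondrocyte markers 0. In Cog, Ihh (-2.58-fold, adjusted p = 0.0361) and the osteoblast marker Dmp1 (-3.72-fold, adjusted p = 0.0438) fell. The part of any of these in the falls of Mmp9, Mmp10, Mmp8, Mmp23, Adamts2 and Adamts9 was not tested.

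Genes whose products work beside Adamts2 in trimming procollagens fell in Schmid too. Of 5 genes of C-propeptide removal, 3 fell and 0 rose, with a median of -1.34, where 4.69% of all probes fell and 5.78% rose. Bmp1, the C-proteinase, read 11.71, 12.19 and 12.18 in Schmid and 14.52, 13.73 and 13.36 in wildtype, and fell by 3.58-fold (adjusted p = 0.00160). Its enhancers Pcolce (-4.89-fold, adjusted p = 0.00205) and Pcolce2 (-2.52-fold, adjusted p = 0.00118) fell as well. In Cog these 3 had log2 values of -0.06, -0.39 and 0.14. The effects differed between the mutants (adjusted p = 0.0142, 0.0329 and 0.00600), as they did at 10.3% of all probes. Bmp1 and Pcolce were also printed in the first 159 rows, where 10.3% of all probes were lower in Schmid.

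**Figure D5:**
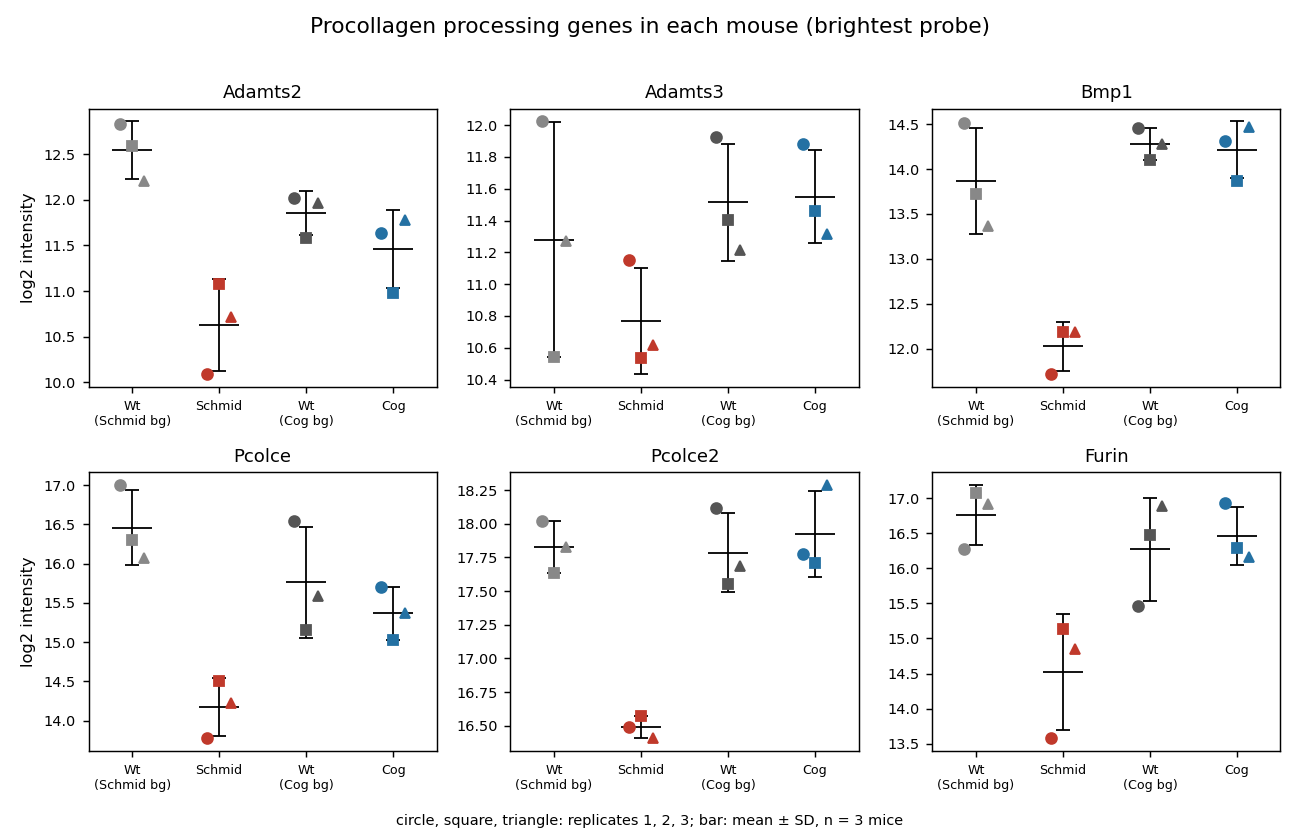
Log2 intensity of genes that process procollagens (Adamts2, Adamts3, Bmp1, Pcolce and Pcolce2) and of Furin in each mouse, with group means and SD (n = 3). Schmid mice lie below their wildtype without overlap in all panels other than Adamts3, and Cog overlaps with its wildtype in all 6.

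The lists of other proteases, activators, substrates and transcription factors held falls and rises, where 4.69% of all probes were lower and 5.78% higher in Schmid. Of 7 proprotein convertases, which activate membrane-type MMPs and ADAMTS proteases inside the cell, 2 fell in Schmid, Furin (-4.71-fold, adjusted p = 0.00713) and Pcsk5 (-4.26-fold, adjusted p = 0.00197). Pcsk5 was called in Cog too (adjusted p = 0.0348), where it was not well above background and at least 1.66-fold higher in wildtype. Plaur, the receptor of urokinase, whose product plasmin activates several MMPs, rose 4.19-fold in Schmid (adjusted p = 0.000721). It read 14.14, 14.14 and 14.34 in Schmid and 11.80, 12.53 and 12.09 in wildtype, without overlap. In Cog it had 1.79-fold (adjusted p = 0.105).

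Of 7 cysteine cathepsins, 1 fell in Schmid, Ctss (-4.53-fold, adjusted p = 0.000806), and the osteoclast collagenase Ctsk had -1.56-fold (adjusted p = 0.502). Of 8 ADAM proteases, Adam9 rose 4.42-fold (adjusted p = 0.00535) and Adam15 fell by 3.57-fold (adjusted p = 0.0154). Of 10 protease substrates, 1 fell, the fibril-binding proteoglycan Fmod (-2.99-fold, adjusted p = 0.0215), and of 9 transcription factors tied to Mmp13 or Mmp9, Cebpb (3.0-fold, adjusted p = 0.000541) and the AP-1 subunit Jun (2.43-fold, adjusted p = 0.00722) rose and Foxo1 fell (-2.26-fold, adjusted p = 0.0244). Cebpb also rose in Cog, 2.89-fold (adjusted p = 0.00431).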

How the data were processed

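Hypertrophic zones of 12 tibiae were profiled on single-colour whole mouse genome arrays. The authors deposited the scanner intensity of 45018 spots per array from Agilent Feature Extraction 9.5.3 (per the submitters' processing notes), and a series matrix of log2 values, which correlated with the values computed here by 0.99987 or more on each array and served as an alternative. Intensity and local background were combined with normexp (offset 50), outlier spots (99.8% kept) and control spots were left out, arrays were quantile normalized, and spots of a probe were averaged. Of 41174 probes, 33 lacked a value on some array and were fitted without it. Group means were fitted over all 12 arrays with limma 3.58.1 in R 4.3.3 (8 residual degrees of freedom, Benjamini-Hochberg adjustment). The procedure was tested on simulated data. Precision is limited by having 3 arrays in each group.

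Members, related lists and markers were chosen with earlier results of these data known. Named were every gene called at any probe in any comparison and the proteases and inhibitors best known in growth plates. The brightest probe of a gene is that of the highest mean log2 signal. Rows 1 to 159 are the first 30% of array rows, a limit also taken from earlier results. Of the lists, the genes called in a mutant were named, except in the plasminogen system, whose full result is not reported here. The "at least" fold of Pcsk5 was taken against the lowest signal well above background, or the probe's own if higher. Gene names and mm7 positions come from the deposited array annotation. Alternatives changed the background correction, scaling, source of values, arrays fitted, dim probes, array position, GC content, slide and replicate number.

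Neither the labels nor the methods say that a shared replicate number marks a litter or day. After group means were removed, same-numbered arrays correlated over 12814 bright probes as follows. Schmid and its wildtype gave 0.307, 0.283 and 0.117. The wildtype pairs gave 0.504, 0.116 and 0.274. Cog pairs gave -0.208, 0.151 and -0.200.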

Additional observations from a re-analysis of the deposited data

Results flagged for a closer look

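Limma's test of the Schmid effect minus the Cog effect called 5 member probes (6.17%, against 10.3% of all probes). Of these, Mmp8 was well above background on 2 of the 12 arrays, so the size of its difference is uncertain. The Adamts12 probe was well above background on 0 arrays and has no measured difference. The difference on the log2 scale was -1.52 for Adamts2 (A_51_P227222), -1.23 for Adamts20 (A_52_P406233), -1.19 for Mmp17 (A_51_P508770), -1.44 for Mmp8 (A_51_P231320) and 1.47 for Adamts12 (A_52_P233305).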

How the results depend on the processing

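The Schmid falls of Mmp9 (brighter probe), Mmp10, Mmp23 and Adamts2 (brightest probe) were called under all 22 alternatives, with log2 values from -3.11 to -2.25, -2.84 to -1.99, -2.01 to -1.10 and -2.44 to -1.64. Lower member probes in Schmid numbered 7, and 14 with the processed signal at a common 75th percentile, 13 with normexp at that percentile, 15 with the processed signal and quantile normalization, 4 with the row trend removed, and 4 to 8 without any 1 array (4 when Schmid replicate 1, Schmid replicate 3 or replicate 2 of its wildtype was missing). Higher ones numbered 1, 2 with the processed signal and quantile normalization, 0 with only the compared groups fitted, and 0 to 1 without any 1 array (0 without Schmid replicate 1 or wildtype replicate 3), each loss being Adamts18. The counts of 0 in Cog became 1 higher (Adamts6) with the processed signal and quantile normalization, and 0 to 1 lower without any 1 array (Adamts12 without Cog replicate 1). Differences between the mutants numbered 5, and 1 with the processed signal at a 75th percentile, 9 with normexp at that percentile, 3 with dim probes left out, 1 with the row trend removed, 0 with row and GC trends removed, 9 with slide as a random block, and 2 to 6 without any 1 array (2 without Schmid replicate 3, or without replicate 2 of either wildtype, and 3 without Schmid replicate 1, any 1 Cog mouse or Cog wildtype replicate 3). In Cog, the processed signal at a 75th percentile moved the median of all probes to 0.43 and that of members to 0.09. The difference for Adamts12 reversed to -1.23 and -0.29 with the processed signal, by 75th percentile and by quantiles. Wildtype calls numbered 1, and 2 with the processed signal at a 75th percentile, 0 with only these groups fitted, and 0 to 1 without any 1 array. With replicate number as a block (the pairing given under processing), the counts were 1 and 7 in Schmid, 0 in Cog, 5 for the difference, where Mmp8 (adjusted p = 0.0516) and Adamts12 (adjusted p = 0.0541) were lost and other probes gained, and 0 between wildtypes. Called genes in Schmid numbered 5 by the brightest probe and 7 by every probe. For these changes the cause was not tested. The share of all probes called under each alternative is not given here, so the counts cannot be read as a trait of the members. In Schmid the median of all probes also moved, to -0.35 with normexp and -0.40 with the processed signal at a 75th percentile. Probes near background (20 of 81 on no array above it) limit what can be said of those genes.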
